A study of Mus musculus with 9 samples.

Results

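The genes described here are 10 transcription factors and cofactors that govern entry into the cell cycle: the E2F genes E2f1, E2f2, E2f3, E2f7 and E2f8, the retinoblastoma genes Rb1, Rbl1 and Rbl2, and the Myc genes Myc and Mycn. They were chosen by name, and all 10 were among the 14477 genes measured. RNA was sequenced from cells of adult B6.Cg-Tg(Nes-EGFP)1Yamm mice, in which green fluorescent protein is expressed under regulatory sequence of nestin, an intermediate filament of neural precursors. Fluorescent cells were sorted from the dissected hippocampal dentate gyrus (DG, 5 libraries) or from the subventricular zone (SVZ, 4 libraries) beside the lateral ventricle. Mice of both groups carried the same transgene, were kept in standard housing and were untreated. The labels give neither the age beyond adult, nor the sex, nor whether a library came from 1 animal or a pool, so p-values measure only the spread between libraries, which may be technical.

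E2F proteins bind the promoters of genes for DNA synthesis and mitosis. E2F1, E2F2 and E2F3 activate these genes as partners of a DP protein, and the atypical E2F7 and E2F8 repress them without one. The retinoblastoma protein and its relatives p107 (Rbl1) and p130 (Rbl2) hold E2F proteins in check until cyclin-dependent kinases phosphorylate them. Myc and N-Myc (Mycn) pair with Max to drive growth and ribosome production, and N-Myc is the family member best known for expanding neural progenitors in development. In both adult regions most stem cells rest outside the cycle, while their transit-amplifying progeny divide.

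Levels are log2 CPM, the log2 of reads scaled to a common library total after a prior count of 1 read was added. Fold changes are DG minus SVZ on that scale, and a gene was called where limma's adjusted p over all genes was under 0.05. Library totals were 33627909 to 41164044 reads in DG and 31126803 to 32528255 in SVZ. The members had 199 to 1671 reads in a DG library and 285 to 1659 in an SVZ library, and counting error alone is 0.1 log2 units at the lowest and 0.035 at the highest of these read numbers.

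The libraries of the regions also differed in cell type markers. The summed level of 7 endothelial markers was 8.73 to 9.91 log2 CPM in DG and 2.01 to 4.76 in SVZ, and that of 7 pericyte markers was 12.35 to 13.42 in DG and 5.59 to 6.93 in SVZ. All 14 of these markers were called higher in DG, and all 14 had reads in every library. Of 6 neuroblast markers all were lower in DG (summed level 12.38 to 12.95 in DG, 14.20 to 14.46 in SVZ), whereas 4 of 6 precursor and astroglia markers were higher in DG and Nes and Sox2 were lower (summed level 13.72 to 14.34 in DG, 10.32 to 11.23 in SVZ). Fibroblast markers were higher in DG in 6 of 6 genes (9.34 to 10.44 in DG, 4.63 to 6.43 in SVZ) and oligodendrocyte lineage markers in 5 of 6 (11.25 to 12.00 in DG, 10.06 to 11.12 in SVZ). Ependymal markers were lower in DG in 4 of 5 genes (5.59 to 6.06 in DG, 6.52 to 7.97 in SVZ) and microglia markers in 2 of 6 (7.57 to 9.29 in DG, 7.42 to 9.87 in SVZ). Of 6 mature neuron markers, 2 were higher and 1 lower (7.68 to 9.55 in DG, 7.42 to 7.66 in SVZ). Over all genes, 33.7% were called lower in DG and 32.9% higher, so the microglia and mature neuron counts do not stand out. The summed microglia ranges of the regions also overlap. The part of these differences in the results that follow was not tested, and in bulk samples fewer cells of a type and less RNA per cell cannot be told apart. Among DG libraries, DG 3 had the highest summed level of 6 mature neuron markers (9.55, against 7.68 to 8.02 in the other DG libraries) and DG 2 the highest of the neuroblast markers (12.95, against 12.38 to 12.51).

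Of the 10 genes, 8 were lower in DG, 0 were higher and 2, Rbl2 and Myc, were not called. Among all genes tested, 33.7% were called lower in DG and 32.9% higher, together 66.6%. By limma at an unadjusted p under 0.05, and with voom weights, 0 members were higher as well. The median log2 fold change of the 10 was -0.90, against -0.075 over all 14477 genes. The same 8 genes had every DG library below every SVZ library, a pattern seen in 28.3% of all genes, with the opposite pattern in 29.7%. Without DG 2 and DG 3, 7 were called lower and 0 higher, the difference being E2f1 (log2 fold change -0.46, adjusted p = 0.0694, limma).

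**Figure D1:**
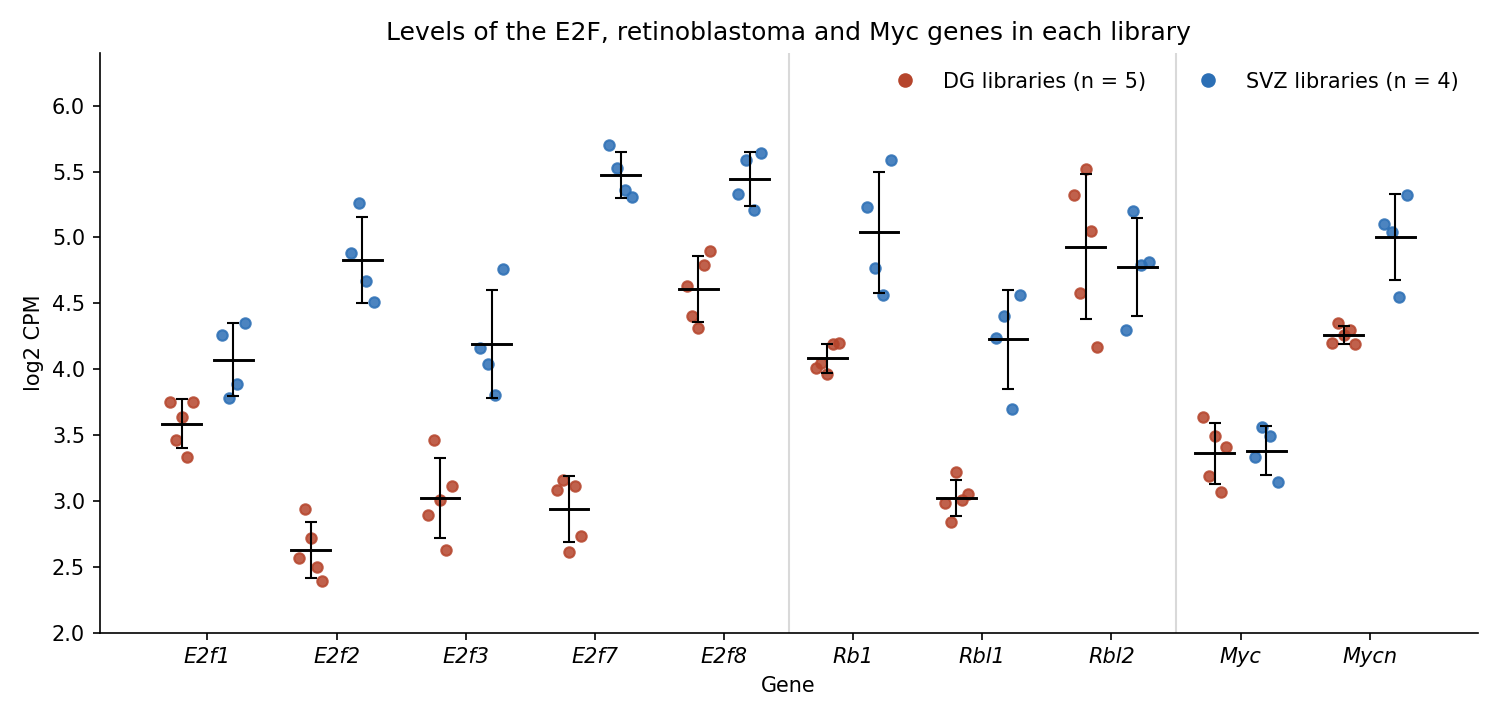
Level of each gene (log2 CPM, y axis) in every library, with DG libraries as red points left of SVZ libraries as blue points; black lines are the mean ± SD (n = 5 DG, n = 4 SVZ). In 8 genes all DG points lie below all SVZ points, by 2.14 for E2f7 and by 0.03 for E2f1, while the groups overlap in Rbl2 and Myc.

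Since 8 members were lower in the same region, promoters of the 10 were read for the letters that E2F proteins are known to bind. RefSeq promoter windows (GRCm38.p6, from 250 bases before to 50 bases after the start) were found for 8 of the 10 genes, in 10 windows, and not for Rb1 and Myc. The letters searched were TTTCCCGC, TTTCGCGC, TTTGCCGC and TTTGGCGC, on both strands. Windows of 5 genes held at least 1 of them: E2f2, E2f3, E2f7, Rbl1 and Mycn. Such letters stood in 2.26% of all 32851 promoter windows, and in 3.77% of the 13926 windows of genes that were measured here. Of the 8 genes with a window, 7 were called lower in DG, so nothing is read from the matches all lying among the lower genes. The matching stretches are shown so that the letters and their surroundings can be compared between genes; each is on the strand of its gene, 5′ to 3′, with the matched letters in capitals and up to 40 bases on each side. In E2f3 and E2f7 the capitals are TTTCCCGC read on the other strand. Within the longer run of capitals in Mycn, GCGCGAAA is TTTCGCGC read on the other strand.
E2f2 (chr4:136172273-136172323, plus strand): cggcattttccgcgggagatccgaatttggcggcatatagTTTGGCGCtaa
E2f3 (chr13:29986027-29986114, minus strand): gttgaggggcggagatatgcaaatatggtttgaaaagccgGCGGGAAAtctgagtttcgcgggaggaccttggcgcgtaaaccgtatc
E2f7 (chr10:110745201-110745288, plus strand): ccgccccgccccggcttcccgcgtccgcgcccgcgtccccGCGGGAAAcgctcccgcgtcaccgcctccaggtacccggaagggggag
Rbl1 (chr2:157204505-157204592, minus strand): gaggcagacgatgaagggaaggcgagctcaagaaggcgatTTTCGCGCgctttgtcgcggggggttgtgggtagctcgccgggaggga
Mycn (chr12:12941957-12942059, minus strand): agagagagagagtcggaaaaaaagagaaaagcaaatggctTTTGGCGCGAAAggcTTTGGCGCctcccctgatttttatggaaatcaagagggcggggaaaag

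In Mycn there were 3 matches between 183 and 168 bases upstream of the start, of which the first and the second overlap and so merge into a single run of capitals. The match lay 198 bases upstream in E2f7, 18 upstream in Rbl1, 11 upstream in E2f3 and 39 downstream in E2f2. These distances are from the RefSeq start, which is also the GENCODE start in E2f3, E2f7 and Rbl1. The RefSeq start lies 78 bases downstream of the GENCODE start in Mycn and 120 bases upstream of it in E2f2. The E2f2 stretch therefore lies wholly before the gene as GENCODE gives it. E2f2 and E2f3 each have a second window, with no match. The windows of E2f1, E2f8 and Rbl2 held none of these letters, and the RefSeq start used for E2f1 lies 466 bases downstream of the GENCODE start, so that its window lies inside the GENCODE gene. A second element, the CHR of cell cycle genes (TTTGAA or TTCGAA), was found in windows of E2f2, E2f3, E2f8, Rbl2 and Mycn and in 19.2% of all windows and 13.9% of those of measured genes. The Myc E-box CACGTG was found in 1 window, of E2f3, against 7.15% of all windows and 9.5% of those of measured genes. These matches describe letters and not binding.

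The atypical repressor E2f7 (ENSMUSG00000020185, chromosome 10, 110745439 to 110787384) showed the largest difference of the 10. In DG 1 to DG 5 it stood at 3.08, 3.16, 2.61, 3.11 and 2.73 log2 CPM, and in SVZ 1 to SVZ 4 at 5.70, 5.53, 5.36 and 5.31. The lowest SVZ library lay 2.14 above the highest DG library, and the spread within either region was 0.56 or less. The gene was 5.8-fold lower in DG (2.94 ± 0.25 in DG, 5.48 ± 0.18 in SVZ, SD; log2 fold change -2.54, SE 0.16, adjusted p = 2.02e-07, limma), and 306 of the 14477 genes had a more negative fold change. Reads behind these levels numbered 221 to 321 in DG libraries and 1286 to 1659 in SVZ libraries. Of its 9009 exon bases, 86 are shared with 1700020G17Rik on the other strand, a gene not among those measured.

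E2f8 (ENSMUSG00000046179, chromosome 7, 48866429 to 48881596), the other atypical repressor, was also lower in DG, but by less. Its levels were 4.63, 4.40, 4.31, 4.79 and 4.90 in DG 1 to DG 5 and 5.33, 5.59, 5.21 and 5.64 in SVZ 1 to SVZ 4. No DG library reached the lowest SVZ library. The difference was 1.79-fold (4.61 ± 0.25 in DG, 5.44 ± 0.21 in SVZ; log2 fold change -0.84, SE 0.15, adjusted p = 0.000528). Over 610 bases its exons overlap those of Gm2788, a gene on the other strand, and as the library kit does not mark strand, reads there cannot be assigned to either gene.

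Among the activators, E2f2 (ENSMUSG00000018983, chromosome 4, 136172394 to 136196057) differed most, with a level 4.62-fold lower in DG. It stood at 2.57, 2.94, 2.72, 2.50 and 2.39 log2 CPM in DG 1 to DG 5, and at 4.88, 5.26, 4.67 and 4.51 in SVZ 1 to SVZ 4. A gap of 1.58 separated the groups (2.62 ± 0.21 in DG, 4.83 ± 0.32 in SVZ; log2 fold change -2.21, SE 0.18, adjusted p = 1.49e-06). E2f3 (ENSMUSG00000016477, chromosome 13, 29906575 to 29986063), an activator on which mouse fibroblasts depend for normal proliferation, was 2.25-fold lower. Its levels were 2.89, 3.46, 3.01, 2.63 and 3.11 in DG 1 to DG 5 and 4.16, 4.04, 3.80 and 4.76 in SVZ 1 to SVZ 4 (3.02 ± 0.30 in DG, 4.19 ± 0.41 in SVZ; log2 fold change -1.17, SE 0.22, adjusted p = 0.000692). DG 2 was the highest DG library for E2f2 and for E2f3, and still lay below every SVZ library.

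E2f1 (ENSMUSG00000027490, chromosome 2, 154559407 to 154569892), the activator that can also trigger apoptosis, showed the smallest called difference. Its levels were 3.75, 3.46, 3.64, 3.33 and 3.75 in DG 1 to DG 5 and 4.26, 3.78, 3.89 and 4.35 in SVZ 1 to SVZ 4. The groups did not overlap, yet the highest DG library and the lowest SVZ library were only 0.03 apart. E2f1 was 1.4-fold lower in DG (3.59 ± 0.19 in DG, 4.07 ± 0.28 in SVZ; log2 fold change -0.48, SE 0.16, adjusted p = 0.0224). The call was lost without DG 4 (adjusted p = 0.0551), without SVZ 1 (0.0689) and without SVZ 4 (0.062), and the adjusted p ranged from 0.0135 to 0.0694 over all alternatives tried.

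**Figure D2:**
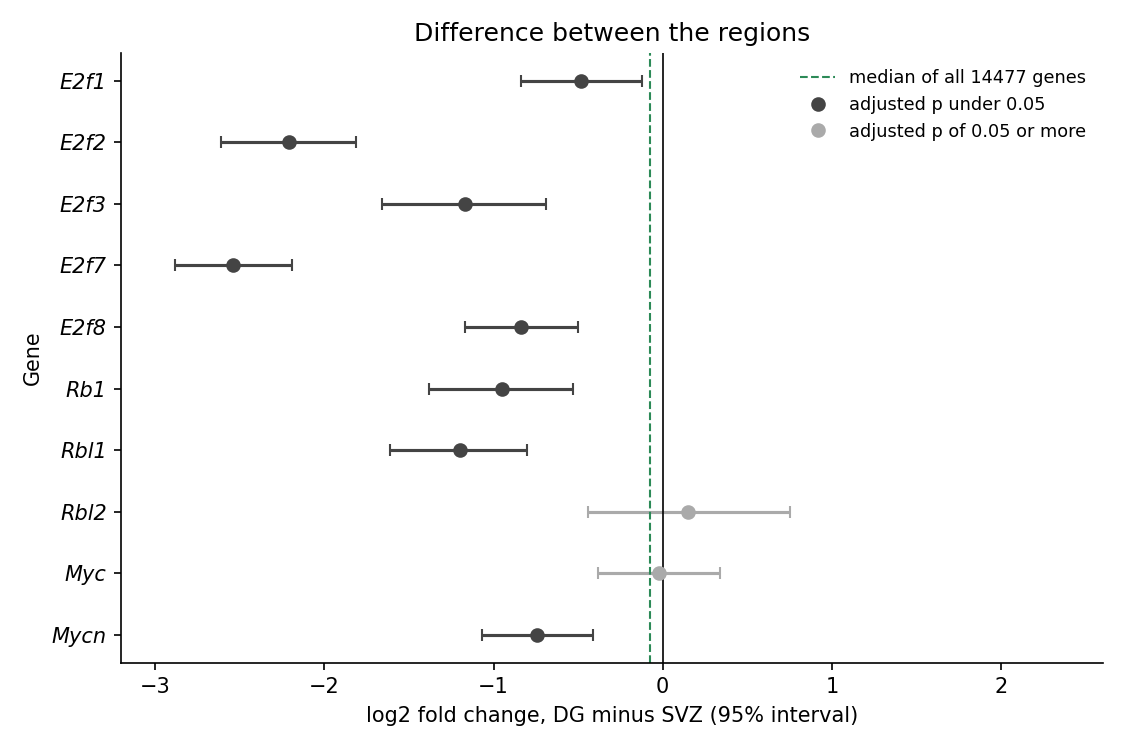
Log2 fold change, DG minus SVZ, of each gene (x axis; points) with its 95% interval from limma (bars); dark points passed adjusted p under 0.05, and the dashed line is the median of all 14477 genes (-0.075). E2f7 (-2.54) and E2f2 (-2.21) lie farthest to the left, E2f1 (-0.48) is the dark point nearest to 0, and the intervals of Rbl2 (-0.44 to 0.75) and Myc (-0.38 to 0.34) cover 0.

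Of the retinoblastoma genes, Rb1 and Rbl1 were lower in DG and Rbl2 was not called. Rb1 (ENSMUSG00000022105, chromosome 14, 73183673 to 73325822), which restrains the activator E2F proteins, stood at 4.01, 4.05, 3.96, 4.19 and 4.20 in DG 1 to DG 5 and at 5.23, 4.77, 4.56 and 5.59 in SVZ 1 to SVZ 4. DG libraries lay within 0.24 of each other, whereas SVZ libraries spread over 1.03. Rb1 was 1.94-fold lower in DG (4.08 ± 0.11 in DG, 5.04 ± 0.46 in SVZ; log2 fold change -0.95, SE 0.19, adjusted p = 0.00109). Its exons overlap those of Lpar6 over 408 bases and of Rcbtb2 over 488 bases, both on the other strand, out of 6015 exon bases. These neighbours were lower in DG too, with log2 fold changes of -0.64 for Lpar6 and -0.70 for Rcbtb2, and their part in the Rb1 value was not tested.

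Rbl1 (ENSMUSG00000027641, chromosome 2, 157145893 to 157204534) encodes p107, the relative that is made mainly in cycling cells. It stood at 2.98, 2.84, 3.22, 3.01 and 3.05 in DG 1 to DG 5 and at 4.24, 4.40, 3.70 and 4.56 in SVZ 1 to SVZ 4, again without overlap. The difference was 2.3-fold (3.02 ± 0.14 in DG, 4.22 ± 0.37 in SVZ; log2 fold change -1.20, SE 0.18, adjusted p = 0.000145). Rbl2 (ENSMUSG00000031666, chromosome 8, 91070057 to 91123844) encodes p130, which is known for holding quiescent cells out of the cycle. Its levels were 5.32, 4.58, 5.52, 5.05 and 4.17 in DG 1 to DG 5 and 4.30, 5.20, 4.79 and 4.81 in SVZ 1 to SVZ 4. The groups overlapped widely, and Rbl2 had the largest spread of the 10 genes within DG, 1.35 between DG 3 and DG 5. Mean levels were 4.93 ± 0.55 in DG and 4.78 ± 0.37 in SVZ (log2 fold change 0.15, SE 0.27, adjusted p = 0.631, 95% interval -0.44 to 0.75). Rbl2 shares 693 exon bases with Aktip on the other strand, whose log2 fold change was -0.10 (adjusted p = 0.518), and 892 with Gm45464.

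Of the Myc genes, Mycn was lower in DG and Myc was not called. Mycn (ENSMUSG00000037169, chromosome 12, 12936093 to 12941914) stood at 4.20, 4.35, 4.26, 4.30 and 4.19 in DG 1 to DG 5 and at 5.10, 5.04, 4.55 and 5.32 in SVZ 1 to SVZ 4. The DG libraries fell within 0.16 of each other, the narrowest spread of the 10 genes in either region, and all lay below the SVZ libraries. Mycn was 1.67-fold lower in DG (4.26 ± 0.07 in DG, 5.00 ± 0.32 in SVZ; log2 fold change -0.74, SE 0.15, adjusted p = 0.00109). Myc (ENSMUSG00000022346, chromosome 15, 61985391 to 61990374), an early target of growth factor signalling in many cell types, had levels of 3.64, 3.19, 3.49, 3.07 and 3.41 in DG 1 to DG 5 and 3.33, 3.56, 3.49 and 3.14 in SVZ 1 to SVZ 4. The regions covered nearly the same range, with means of 3.36 ± 0.23 in DG and 3.38 ± 0.19 in SVZ (log2 fold change -0.02, SE 0.16, adjusted p = 0.918). The 95% interval of -0.38 to 0.34 bounds a difference that could have gone undetected.

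To compare genes with each other, levels were divided by exon length (log2 CPM per kilobase of exon). Mycn was the highest of the 10 in DG (2.54 ± 0.07) and in SVZ (3.28 ± 0.32), followed in each region by E2f8 (2.16 ± 0.25 in DG, 3.0 ± 0.21 in SVZ). The ranges of Mycn and E2f8 did not overlap in DG and overlapped in SVZ. The wide range of Rbl2 in DG did reach into that of Mycn, so the order is one of mean levels and need not hold in every library. In DG the next genes, Rbl2 (2.01), E2f1 (1.93) and Myc (1.92), overlapped with their neighbours in the order, Rb1 followed at 1.49, with no overlap with Myc above it or E2f3 below it but within the range of Rbl2, and a low set followed with E2f3 (0.58), Rbl1 (0.44) and E2f2 (0.34). E2f7 was the lowest in DG, at -0.23 ± 0.25, with no overlap with E2f2. In SVZ the order was different below the first places: E2f2 (2.55), Rb1 (2.45), E2f1 (2.41) and E2f7 (2.30) overlapped from neighbour to neighbour, and Myc (1.94), Rbl2 (1.86), E2f3 (1.75) and Rbl1 (1.64) formed the low end, also overlapping. All 10 thus lay within a narrower band in SVZ than in DG, and the gene at the foot of the order was E2f7 in DG and Rbl1 in SVZ.

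**Figure D3:**
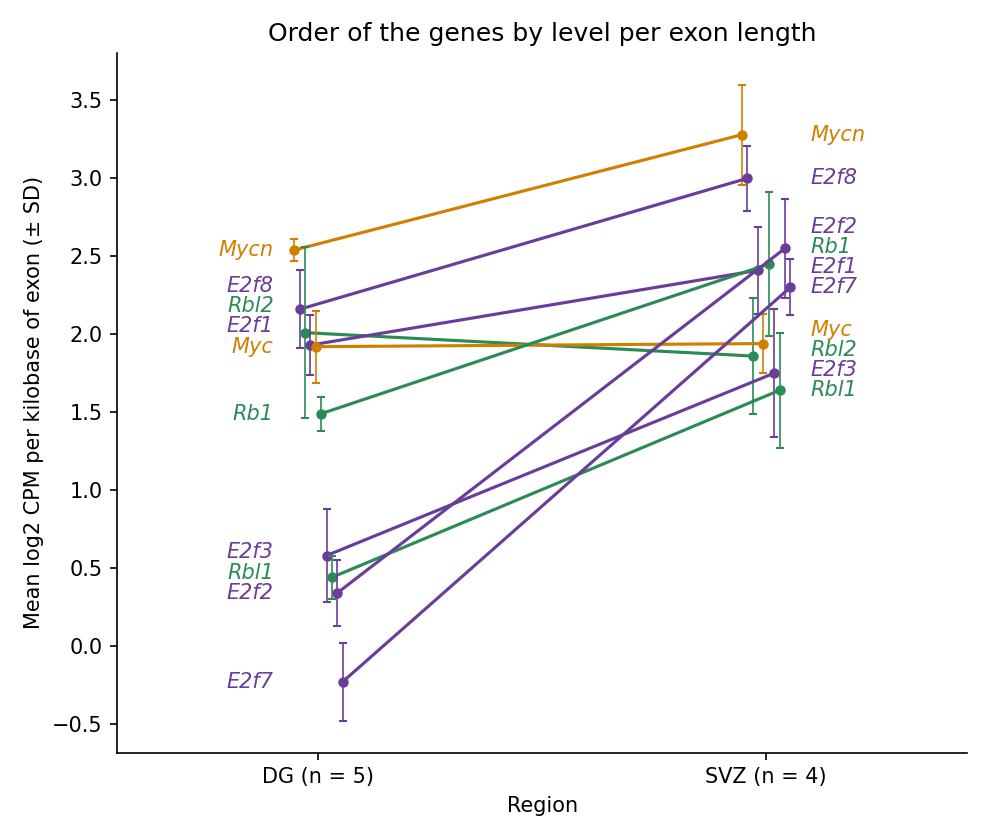
Mean level per kilobase of exon (log2 CPM per kb, y axis; bars are SD) of each gene in DG (left, n = 5) and SVZ (right, n = 4), joined by a line per gene; E2F genes are purple, retinoblastoma genes green and Myc genes orange. The lines of E2f7 (-0.23 in DG, 2.30 in SVZ) and E2f2 (0.34 in DG, 2.55 in SVZ) are the steepest and cross those of several other genes, while those of Myc and Rbl2 are nearly flat.

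Differences between pairs of genes within a library do not depend on how libraries are scaled, and 6 pairs were compared between the regions with an exact two-sided permutation test, whose smallest possible p is 0.0159 with 5 and 4 libraries. The balance of the atypical repressors differed: E2f8 exceeded E2f7 by 1.54, 1.23, 1.71, 1.69 and 2.17 log2 units in DG 1 to DG 5, and by -0.37, 0.06, -0.15 and 0.33 in SVZ 1 to SVZ 4. The E2f8 to E2f7 read ratio was thus 3.25-fold higher in DG (difference 1.70, exact permutation p = 0.0159, the smallest possible, adjusted p = 0.0476 over the 6 pairs, higher in all DG libraries than in any SVZ library). Rbl1 minus Rbl2, p107 against p130, was -2.34, -1.74, -2.30, -2.04 and -1.13 in DG 1 to DG 5 and -0.07, -0.81, -1.08 and -0.25 in SVZ 1 to SVZ 4. That ratio was 2.56-fold lower in DG (difference -1.36, exact permutation p = 0.0159, adjusted p = 0.0476), again without overlap, although DG 5 (-1.13) and SVZ 3 (-1.08) came close. Leaving out any 1 of the 9 libraries ended both calls (adjusted p 0.0536 to 0.107, exact permutation test), with differences of 1.57 to 1.82 and of -1.55 to -1.20. Without 1 library the smallest p that this test can give is 0.0286 or 0.0357 before adjustment. The lost calls therefore cannot show that the results depend on any single library.

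The remaining 4 pairs did not pass after adjustment. Mycn minus Myc was 0.90 ± 0.28 in DG and 1.62 ± 0.47 in SVZ (difference -0.72, exact permutation p = 0.0476, adjusted p = 0.0571), so that the unequal results of Mycn and Myc in the fit are not shown to differ from each other. E2f1 minus E2f3 was 0.57 ± 0.33 in DG and -0.12 ± 0.26 in SVZ (difference 0.69, exact permutation p = 0.0476, adjusted p = 0.0571). E2f1 minus Rb1 was -0.50 ± 0.24 in DG and -0.97 ± 0.23 in SVZ (difference 0.47, exact permutation p = 0.0317, adjusted p = 0.0571). For Rbl1 minus Rb1 the values were -1.06 ± 0.20 in DG and -0.81 ± 0.30 in SVZ (difference -0.25, exact permutation p = 0.159).

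**Figure D4:**
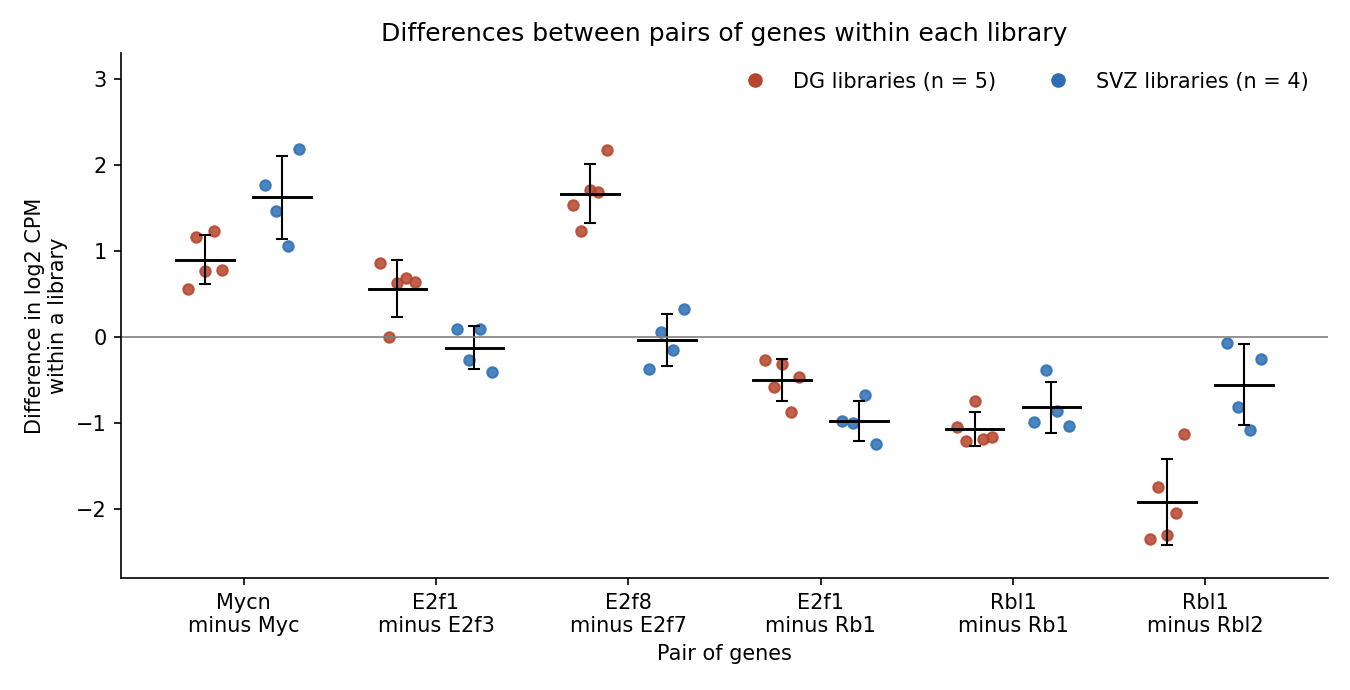
Difference in log2 CPM between the genes of 6 pairs within each library (y axis), DG libraries in red left of SVZ libraries in blue; black lines are the mean ± SD (n = 5 DG, n = 4 SVZ). Groups do not overlap for E2f8 minus E2f7 (1.23 to 2.17 in DG, -0.37 to 0.33 in SVZ) and Rbl1 minus Rbl2 (-2.34 to -1.13 in DG, -1.08 to -0.07 in SVZ), and overlap in the other 4 pairs.

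The other genes of the E2F pathway were read from lists. Among 5 further E2F and DP genes, 2 were lower in DG and 1 was higher (median -0.47), counts near the shares over all genes (33.7% lower, 32.9% higher). Tfdp1 (-0.84) and Tfdp2 (-0.83), which encode the DP partners, were the lower ones. Among the E2F genes known as repressors, E2f4 was not called (2.72 in DG, 3.19 in SVZ; log2 fold change -0.47, adjusted p = 0.0869), nor was E2f6 (2.47 in DG, 2.30 in SVZ; 0.18, adjusted p = 0.471), and E2f5 was higher in DG (2.79 in DG, 2.24 in SVZ; 0.55, SE 0.20, adjusted p = 0.0314). The E2f5 call was lost without DG 1, DG 4, SVZ 1 or SVZ 3. Of 7 genes of the MuvB core, B-Myb and Foxm1, which with p130 or p107 silence and with B-Myb activate cell cycle genes, 5 were lower and 0 higher (median -0.50), with Mybl2 at -2.16 and Foxm1 at -1.71.

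Of 13 measured G1 cyclins, kinases and inhibitors, which act on the retinoblastoma proteins, 6 were lower in DG and 5 higher (median -0.38), where 33.7% of all genes were lower and 32.9% higher. Ccnd2, cyclin D2, was lower by a log2 fold change of -2.88 and Ccne2, cyclin E2, by -1.38, while Ccne1 was not called (-0.38, adjusted p = 0.25). The higher ones included Cdkn2c (0.86), an inhibitor of the cyclin D kinases, and Ccnd1 (0.82), cyclin D1. The other measured inhibitors went both ways: Cdkn1a (0.67) was higher, Cdkn1b (-0.98) and Cdkn2d (-0.61) were lower, and Cdkn1c was not called. In the Max network, 9 of 12 genes were lower and 1 higher (median -0.88). Mycl, the third Myc gene, was lower in DG (5.24 in DG, 6.94 in SVZ; log2 fold change -1.70, SE 0.17, adjusted p = 5.27e-06), as was Mlxip (-1.28), which encodes a glucose-responsive partner of Mlx. Max itself, the shared partner, was not called (-0.06, adjusted p = 0.845), and Mxd4, a Myc antagonist, was higher by 0.27, a call lost without any of DG 1, DG 2, DG 3, SVZ 1, SVZ 2 or SVZ 3.

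Known targets of the E2F and Myc factors were counted in the same fit, in which 33.7% of all genes were lower in DG and 32.9% higher. All 25 S phase genes known as E2F targets were lower in DG (median -1.41), among them Rrm2, a subunit of ribonucleotide reductase (-2.21), and Gmnn, the replication licensing inhibitor geminin (-1.93). All 13 genes of G2 and mitosis were lower as well (median -1.54), including Mki67 (-2.14) and Top2a (-1.84). Of 23 Myc target genes, 12 were lower and 2 higher (median -0.32). Eif4a1, a translation initiation helicase (-1.24), and Npm1, a nucleolar protein (-0.78), were lower, and Ldha, lactate dehydrogenase A (1.25), and Shmt2, a mitochondrial serine enzyme (0.33), were higher. The count of Myc targets higher in DG was 1 without SVZ 4. The MuvB list, with 0 genes higher, also gave 0 by limma at an unadjusted p under 0.05 and with voom weights. Lin52 of that list, at 0.24, came close (unadjusted p = 0.0538, limma). As all S phase and mitosis genes were called lower, an unadjusted p could give no higher gene there, and voom weights gave 0. Against these medians, the fold changes of E2f7 and E2f2 were more negative than those of both cell cycle lists, and those of the other 6 called members were less negative, with no test of that difference.

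**Figure D5:**
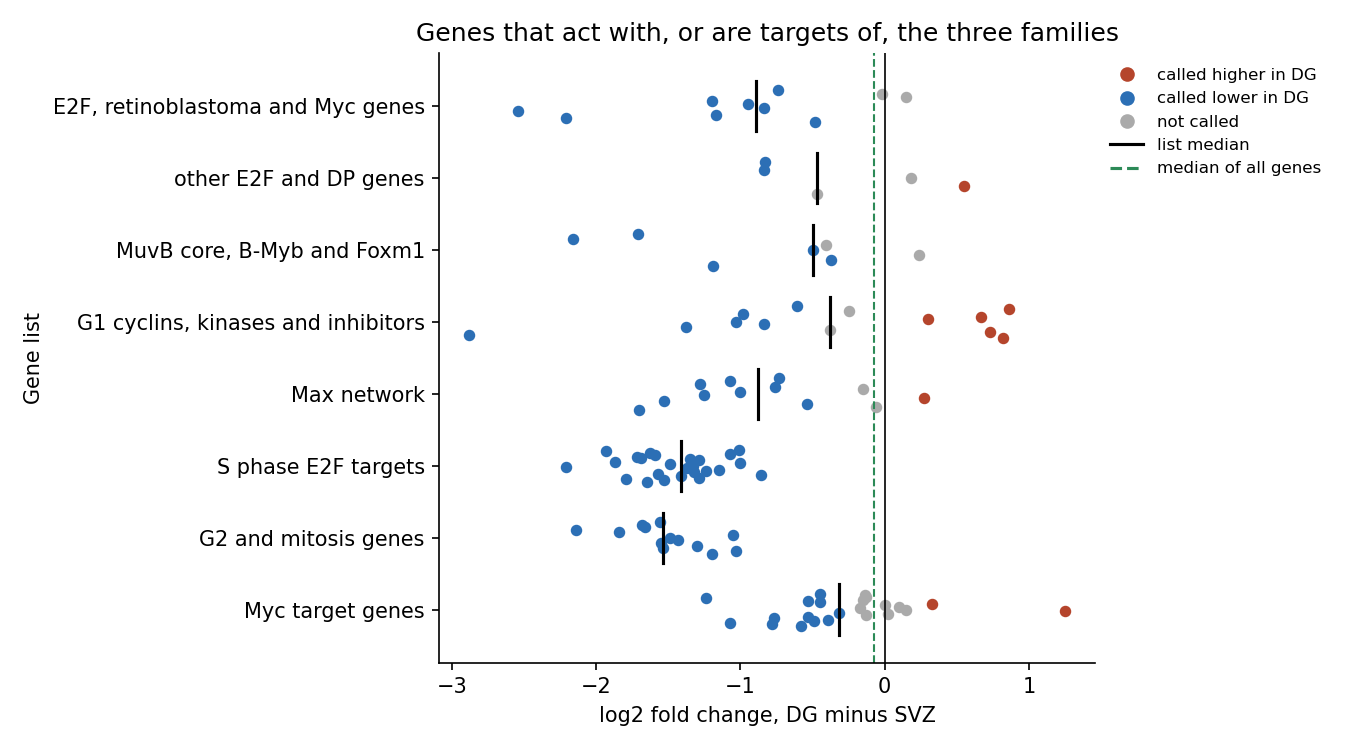
Log2 fold change, DG minus SVZ (x axis), of every measured gene of the E2F, retinoblastoma and Myc families and of 7 related lists (rows; 1 point per gene, spread vertically for clarity); red points were called higher in DG, blue points lower, grey points not called. Black bars are list medians, from -1.54 for G2 and mitosis genes to -0.32 for Myc target genes, and the dashed line is the median of all genes (-0.075).

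Genes whose profile over the 9 libraries was most like that of Rb1, Mycn and Myc were found by Pearson correlation among 9477 named genes that averaged 3 log2 CPM or more. These are descriptions, as all genes share the same libraries and any difference between the regions enters these correlations. The nearest to Rb1 was Sel1l3 (r = 0.987), to Mycn Ywhab (r = 0.99) and to Myc Rpusd1 (r = 0.857). After the mean of each region was subtracted, the correlations of these pairs were 0.948 for Rb1, 0.954 for Mycn and 0.862 for Myc. The pairs were picked as the highest of 9477 over the same libraries, so high values follow in part from that choice. Rb1 and Mycn spread over 1.03 and 0.77 in SVZ, against 0.24 and 0.16 in DG, so their values rest mainly on the SVZ libraries. Ranbp9 and Micu2 came next for Rb1, Recql and Jade3 for Mycn, and Evi5l and Crtc1 for Myc.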

How the data were processed

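RNA was extracted from sorted cells, and full-length cDNA was primed at the poly-A tail, amplified and sheared, per the labels' protocols; the kit does not mark strand and reads carry no molecular identifiers. STAR, edgeR and the mm10 build are named in the submitters' processing notes; the notes hold no versions, read counter or filter. Values in the table were deposited as log2 CPM. The values themselves show a prior count of 1 read, in proportion to library size: with this formula 100% of values gave back whole reads (tolerance 0.001). Each of its 14477 genes exceeded 1 CPM in at least 3 libraries. Depth was 31126803 to 41164044 reads per library over these genes.

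All genes were fitted with limma 3.58.1 (R 4.3.3) on the table as deposited, letting the prior variance follow the mean level, with region as the only term and Benjamini-Hochberg adjustment over all genes. Differences within pairs of members were tested by exact two-sided permutation (scipy 1.17.1). Alternatives were prior counts of 5 and 0.25 reads, a minimum average of 3 log2 CPM, median-of-ratios scaling, voom weights, no trend, a replicate block and leaving out each library; leaving out DG 2 and DG 3 together was added after seeing the data. Libraries of a region differed from each other by more than sampling noise (chi-square of 19.4 to 172 per degree of freedom).

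All members are named. Of each pathway list, the 2 genes with the smallest adjusted p in each direction are named, and E2f4, E2f5, E2f6, Tfdp1, Mybl2, Foxm1, Max, Mycl, Mki67 and Ccne1 whatever their result. Lin52, Cdkn1a, Cdkn1b, Cdkn1c and Cdkn2d are named besides, outside this rule. Of the genes with the most similar profile, 3 each were sought for E2f1, Rb1, Myc and Mycn, and those of E2f1 are not reported here. Members, lists and the marker genes were chosen with earlier results of these data known. Symbols, coordinates and exon overlaps are from GENCODE M21, which matched 14433 of the IDs, and promoter sequences from RefSeq (GRCm38.p6, the assembly that mm10 names).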

Additional observations from a re-analysis of the deposited data

Results flagged for a closer look

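Levels of the 10 genes and of E2f4, E2f5, E2f6 and Mycl, and the differences within 6 pairs, were searched for a library far from the others of its region. Of 40 groups, 1 held such a library, where chance gives about 1 in 20. E2f1 minus E2f3 was 0.00 in DG 2, against 0.63 to 0.86 in the other DG libraries. E2f3 was highest in DG 2 among the DG libraries (3.46), and E2f1 (3.46) was within the range of the others.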

How the results depend on the processing

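Of 170 member fold changes under 17 alternatives each, 166 kept their direction where called and their side of the threshold, and 4 lost the call, all of E2f1. E2f1 stood at -0.46 without DG 2 and DG 3, and at -0.58 to -0.39 when 1 library was left out. Over leave-outs the count of members lower in DG was 7 to 8, and 0 were higher. Median-of-ratios scaling moved the median of all genes by 0.036, and all member calls held under it. Under the minimum mean of 3 log2 CPM, 9762 genes were tested in place of 14477. Of these, 2938 were called higher in DG, in place of 4769, and 3691 lower, in place of 4873. Among the better expressed genes, more were thus lower in DG than higher.

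Small list counts moved. The number of other E2F and DP genes higher in DG (1, E2f5) was 0 under the replicate block and without DG 2 and DG 3, and 0 to 1 over leave-outs. It was also 0 under the minimum mean, but there E2f5 (2.79 in DG, 2.24 in SVZ) was left out and so not tested. In the Max network (1, Mxd4) it was 0 with no trend, under the replicate block and without DG 2 and DG 3, and 0 to 1 over leave-outs. The Myc targets higher in DG numbered 1 under the replicate block and 1 to 2 over leave-outs.

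No pairing by replicate number was seen in the values: deviations from the region means correlated at -0.173 to 0.00727 over genes between same-numbered libraries, and no library correlated best with its own number. Whether same-numbered libraries share an animal, a pool or a day cannot be told from this. With the replicate block, 8 members were called lower and 0 higher, and 4273 of all genes lower and 4513 higher, against 4873 and 4769 without it. E2f8 minus E2f7 differed by 1.57 under the replicate block (exact permutation p = 0.125, the smallest that 4 pairs allow). It differed by 1.83 without DG 2 and DG 3, and by 1.57 to 1.82 over leave-outs. Rbl1 minus Rbl2 differed by -1.55 under the block, by -1.28 without DG 2 and DG 3, and by -1.55 to -1.20 over leave-outs. Leaving out DG 5 alone gave the same 1.57 and -1.55 as the block. Fewer libraries raise the smallest p that these exact tests can give, to 0.0571 without DG 2 and DG 3 and to 0.0286 or 0.0357 without 1 library, before adjustment.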

Other observations

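The members were not highest in the same SVZ library. SVZ 4 was the highest of its region for 6 of the 10 genes (E2f1, E2f3, E2f8, Rb1, Rbl1 and Mycn) and SVZ 3 the lowest for 5 (E2f3, E2f8, Rb1, Rbl1 and Mycn), whereas E2f2 and E2f7 were lowest in SVZ 4. The summed ependymal markers were lowest in SVZ 4 (6.52 log2 CPM) and highest in SVZ 3 (7.97), and the mean level of the G2 and mitosis list was 7.23 in SVZ 4 and 7.36 in SVZ 3. The S phase list ran the other way, with a mean of 7.12 in SVZ 4 and 7.03 in SVZ 3, the lowest of its region. The summed microglia markers were 7.42, 8.78, 9.24 and 9.87 in SVZ 1 to SVZ 4. SVZ 1, the lowest of these, came next after SVZ 4 for E2f1, E2f3, Rb1 and Mycn, and SVZ 2 did so for E2f8 and Rbl1. A link of the members to these markers was not tested. Among DG libraries, DG 2 was the highest for 4 genes (E2f2, E2f3, E2f7 and Mycn), and its mean of the G2 and mitosis list was the lowest of its region, at 5.36 against 5.84 to 6.19. Its mean of the S phase list was not low, at 5.74 against 5.50 to 5.83 in the other DG libraries. Rbl2 ran from 4.17 in DG 5 to 5.52 in DG 3, and the part of cell make-up in this spread was not tested.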
